A study of Mus musculus with 8 samples.

Results

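The 10 T cell genes described here are Cd3d, Cd3e, Cd3g, Cd4, Cd8a, Cd8b1, Il7r, Lck, Tcf7 and Cd28, taken by gene name from the 37074 gene names on the array. They were read by 20 of the 56605 non-control probes. A probe was kept when, in at least 1 group, both arrays read it well above background. This kept 16 of the 20 probes and all 10 genes, and 39602 probes and 25830 genes over the whole array.

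Gene expression was measured on one-colour Agilent arrays in the lungs of 8 male bone marrow chimeras aged 22 weeks, all killed 72 h after an injection of diphtheria toxin. Each group name gives the donor of the marrow and then the recipient, L for LysM-DTR and W for wild type, with 2 mice per group and 1 array per mouse. In LL mice donor and recipient were both LysM-DTR, and in WL mice the donor was wild type and the recipient LysM-DTR. In LW mice the donor was LysM-DTR and the recipient wild type, and in WW mice both were wild type. In LysM-DTR mice the diphtheria toxin receptor is placed under the lysozyme M (Lyz2) promoter, which is active in macrophages, monocytes, neutrophils and alveolar type 2 cells. All 8 mice received the toxin, no array of a mouse without it was analysed here, and the share of host blood cells left in each chimera is not given in the sources used here.

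T cells recognise antigen through a receptor whose signal is carried into the cell by the CD3 chains, encoded by Cd3d, Cd3e and Cd3g. The coreceptors CD4 and CD8 bind the molecules that present the antigen and bring the kinase Lck to the receptor, and CD28 gives the second signal a naive cell needs. Tcf7 encodes the transcription factor TCF-1 of naive and memory T cells, and Il7r the receptor for interleukin-7, on which resting T cells depend for survival. The healthy lung holds T cells both in its vessels and in its tissue. In whole lung RNA, fewer T cells and less RNA per T cell cannot be told apart.

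Levels below are log2 of the processed signal minus the array's 75th percentile, so 0 is the signal of the probe at that percentile. A level is compared between arrays for the same probe and not between genes. The 75th percentile lay between 208.6 and 324.4 intensity units, and 66.3 to 72.3% of spots were well above background. All arrays were on 1 slide, with LL and WL in one column, LW and WW in the other, and the donor genotype following the place along the column, so for any 2 groups compared the effects of genotype and of slide position cannot be told apart. Lyz2, whose promoter defines the strain, had levels of 4.67 and 4.94 in LL lungs, 8.70 and 7.36 in WL lungs, 8.99 and 8.84 in LW lungs and 9.05 and 9.09 in WW lungs.

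The first question was how the T cell genes stood when the receptor was carried by both marrow and recipient, LL against WW. Il7r and Cd8a were lower in LL and passed the test, Cd8a by a dim probe whose call was lost under other processing. Cd3d, Cd3g, Cd8b1, Lck, Cd28 and Tcf7 lay below WW in both LL lungs without passing it, and Cd3e and Cd4 differed least. The median log2 difference of the 10 genes was -1.74, against 0.03 over all genes tested. The 2 calls, at an adjusted p under 0.05 (limma, Benjamini-Hochberg over 25830 genes), compare with 1.92% of all genes called lower in LL and 3.13% called in either direction. At an unadjusted p under 0.05, 8 of the 10 genes were lower in LL, against 12.4% of all genes. For 9 of the 10 both LL values lay below both WW values, against 32.4% of all genes.

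**Figure D1:**
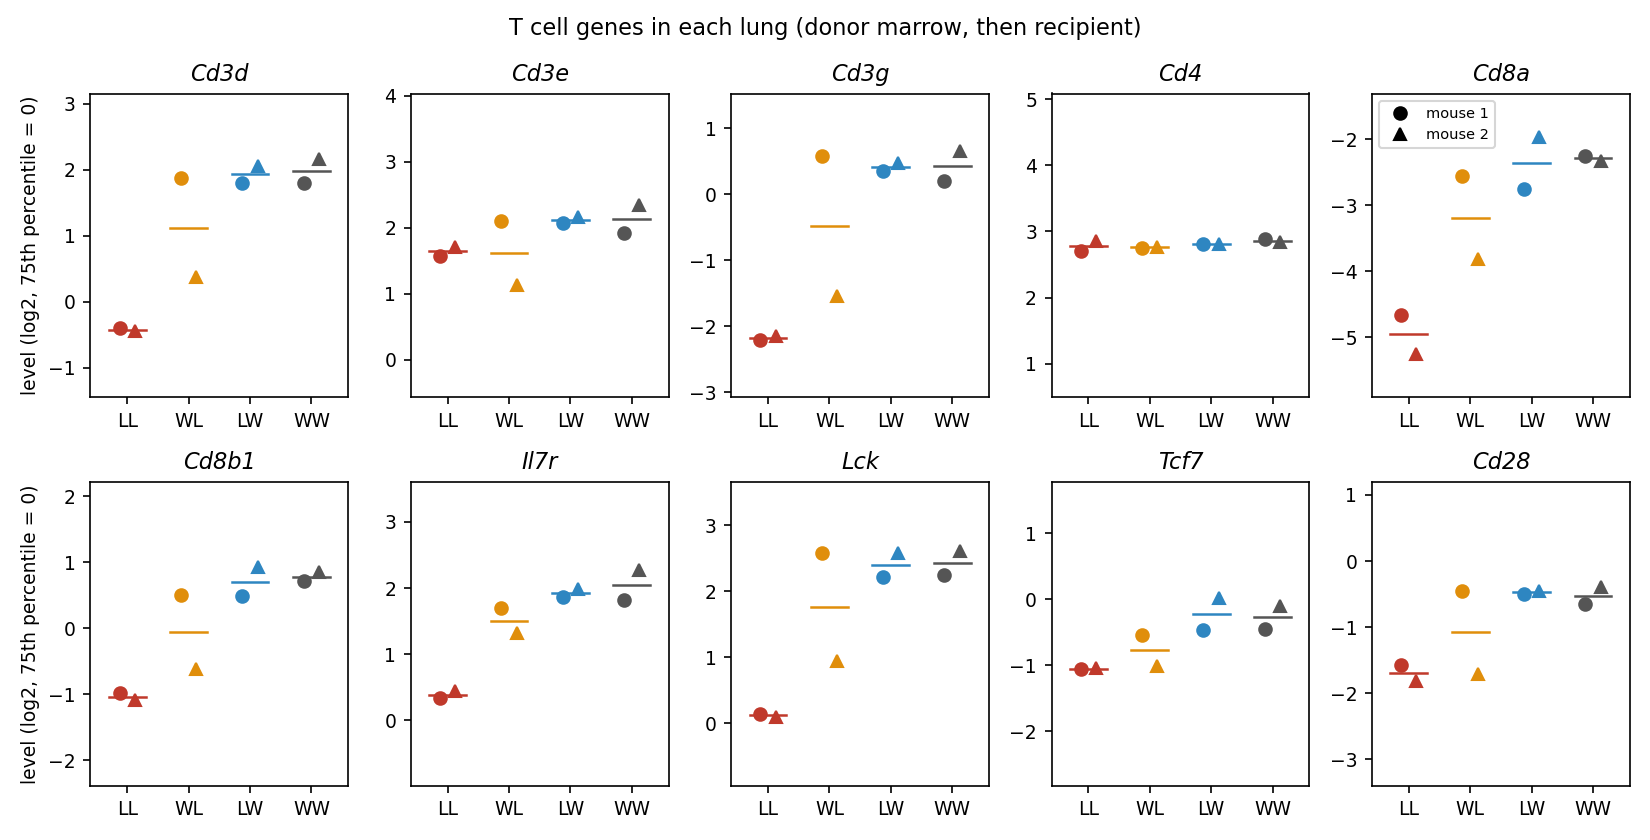
Level of each T cell gene in each lung (log2 of the processed signal, array 75th percentile = 0), by group, with mouse 1 as a circle, mouse 2 as a triangle and the group mean as a line; every panel spans the same number of log2 units. Both LL lungs lie below the LW and WW lungs for 9 genes, the WL mice lie apart for most genes, and Cd4 is nearly level in all 8 lungs.

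Of the receptor chains, Cd3d had levels of -0.39 and -0.45 in LL lungs, 1.88 and 0.37 in WL lungs, 1.81 and 2.06 in LW lungs and 1.79 and 2.16 in WW lungs. Cd3g had -2.20 and -2.15 in LL lungs, 0.57 and -1.54 in WL lungs, 0.35 and 0.47 in LW lungs and 0.21 and 0.66 in WW lungs. For both genes the LL lungs were the lowest of the 8 and the LW and WW lungs overlapped, with WL mouse 1 among them and WL mouse 2 between them and LL. Against WW the log2 difference in LL was -2.40 for Cd3d (SE 0.465, adjusted p = 0.0545, limma) and -2.61 for Cd3g (SE 0.626, adjusted p = 0.0847). These correspond to levels 5.26-fold and 6.11-fold lower in LL, with 95% intervals on the log2 scale of -3.52 to -1.27 and -4.13 to -1.09. Neither passed the test.

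Cd3e, which encodes the chain shared by both signalling dimers of the receptor, had levels of 1.57 and 1.70 in LL lungs, 2.10 and 1.13 in WL lungs, 2.08 and 2.16 in LW lungs and 1.92 and 2.33 in WW lungs. Its lowest lung was WL mouse 2, below both LL lungs, the only one of the 10 genes for which that was so. The difference of LL from WW was -0.49 (SE 0.327, adjusted p = 0.372, limma), with a 95% interval of -1.28 to 0.30. The interval does not reach the estimates for Cd3d and Cd3g.

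The CD3 genes are neighbours, and their promoters are shown because Cd3d and Cd3g gave larger differences than Cd3e, though the difference between the genes was not tested. On chromosome 9 (GRCm38.p6, RefSeq) the starts of Cd3g and Cd3d are 1355 bases apart, and those of Cd3d and Cd3e 27825 bases apart. RefSeq promoter entries were found for 7 of the 10 genes, though RefSeq lists all 10 genes. The 300 bases around each start are chr9:44981536-44981835 (plus strand) for Cd3d, chr9:45009562-45009861 (minus strand) for Cd3e and chr9:44980382-44980681 (minus strand) for Cd3g, printed 5′ to 3′ along the gene. Capitals mark GGAAG or its reverse complement CTTCC, which is GGAA, the core bound by ETS transcription factors, with a following G. GGAA followed by another base was neither marked nor counted, and it occurs in the Cd3g promoter too.
Cd3d promoter: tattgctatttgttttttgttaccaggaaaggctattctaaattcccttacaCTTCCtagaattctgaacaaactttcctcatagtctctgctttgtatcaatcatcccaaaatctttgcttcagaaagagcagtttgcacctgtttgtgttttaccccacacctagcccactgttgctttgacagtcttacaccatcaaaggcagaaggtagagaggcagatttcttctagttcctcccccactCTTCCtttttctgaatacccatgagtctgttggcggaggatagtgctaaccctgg
Cd3e promoter: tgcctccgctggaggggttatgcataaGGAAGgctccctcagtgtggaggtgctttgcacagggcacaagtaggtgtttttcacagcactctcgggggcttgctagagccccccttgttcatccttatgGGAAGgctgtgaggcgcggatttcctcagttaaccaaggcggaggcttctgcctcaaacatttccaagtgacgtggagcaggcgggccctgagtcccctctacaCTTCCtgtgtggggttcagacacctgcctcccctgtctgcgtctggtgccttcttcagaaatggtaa
Cd3g promoter: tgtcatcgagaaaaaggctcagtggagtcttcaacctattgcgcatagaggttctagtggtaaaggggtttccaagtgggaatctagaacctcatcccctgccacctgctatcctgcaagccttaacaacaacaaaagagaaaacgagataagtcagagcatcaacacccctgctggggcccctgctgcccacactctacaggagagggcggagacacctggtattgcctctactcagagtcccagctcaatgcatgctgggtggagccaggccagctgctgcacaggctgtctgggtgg
The motif, searched on both strands, occurred 2 times for Cd3d, 3 times for Cd3e and 0 times for Cd3g, and 71.4% of 32851 mouse promoters of this length hold it. It was present in 6 of the 7 genes with an entry.

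Of the coreceptors, Cd8a, the alpha chain of CD8, had levels of -4.66 and -5.25 in LL lungs, -2.57 and -3.82 in WL lungs, -2.76 and -1.97 in LW lungs and -2.26 and -2.33 in WW lungs. It fell by 2.67 in LL against WW on the log2 scale (SE 0.47, adjusted p = 0.0442, limma, n = 2 mice per group). The probe is dim, and only 1 of the 2 LL arrays read it well above background. The size of the difference therefore depends on how background is handled. With normexp background correction the difference was -0.78 (adjusted p = 0.118, limma) and with the mean of the gene's probes -1.80 (adjusted p = 0.0771), and Cd8a then did not pass. It also did not pass with no filter (adjusted p = 0.0741). Cd8b1, the beta chain of CD8, had levels of -0.98 and -1.09 in LL lungs, 0.50 and -0.62 in WL lungs, 0.48 and 0.92 in LW lungs and 0.71 and 0.85 in WW lungs. Its values were ordered like those of Cd8a, with LL lowest and WL mouse 2 next, but the difference of -1.81 did not pass (SE 0.368, adjusted p = 0.0601).

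Cd4, the coreceptor of helper and regulatory T cells and also made by some myeloid cells, had levels of 2.70 and 2.86 in LL lungs, 2.75 and 2.76 in WL lungs, 2.81 and 2.80 in LW lungs and 2.88 and 2.85 in WW lungs. The LL and WW lungs overlapped, and all 8 values lay within a narrow span. The difference of LL from WW was -0.08 (SE 0.132, adjusted p = 0.716, limma), and its 95% interval was -0.40 to 0.24. Cd4 was thus the gene of the 10 with the smallest difference in this comparison.

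Il7r, the other gene that passed, had levels of 0.34 and 0.43 in LL lungs, 1.70 and 1.32 in WL lungs, 1.86 and 1.98 in LW lungs and 1.82 and 2.27 in WW lungs. Both WL lungs lay between the LL lungs and all LW and WW lungs. Il7r fell by 1.66 in LL against WW (SE 0.213, adjusted p = 0.0205, limma), a level 3.16-fold lower. Group 2 innate lymphoid cells also carry this receptor. Of 8 tested markers of those cells, Il7r among them, Il7r was the 1 called, and their median difference was -0.40. The differences were widely spread, from -3.84 for Klrg1 to 2.76 for Areg, with 6 below 0 and 2 above. Klrg1 was above background on neither LL array.

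Lck, the kinase that starts receptor signalling, had levels of 0.14 and 0.09 in LL lungs, 2.57 and 0.95 in WL lungs, 2.22 and 2.57 in LW lungs and 2.25 and 2.61 in WW lungs. Cd28 had -1.57 and -1.81 in LL lungs, -0.45 and -1.71 in WL lungs, -0.51 and -0.45 in LW lungs and -0.66 and -0.39 in WW lungs. Tcf7 had -1.06 and -1.04 in LL lungs, -0.54 and -1.003 in WL lungs, -0.46 and 0.02 in LW lungs and -0.45 and -0.09 in WW lungs. In all 3 genes both LL lungs lay below every LW and WW lung, while WL mouse 2 reached LL levels for Cd28, nearly so for Tcf7 and not for Lck. The differences of LL from WW were -2.31 for Lck (SE 0.499, adjusted p = 0.069, limma), -1.17 for Cd28 (SE 0.394, adjusted p = 0.152) and -0.78 for Tcf7 (SE 0.247, adjusted p = 0.139), and none passed.

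**Figure D2:**
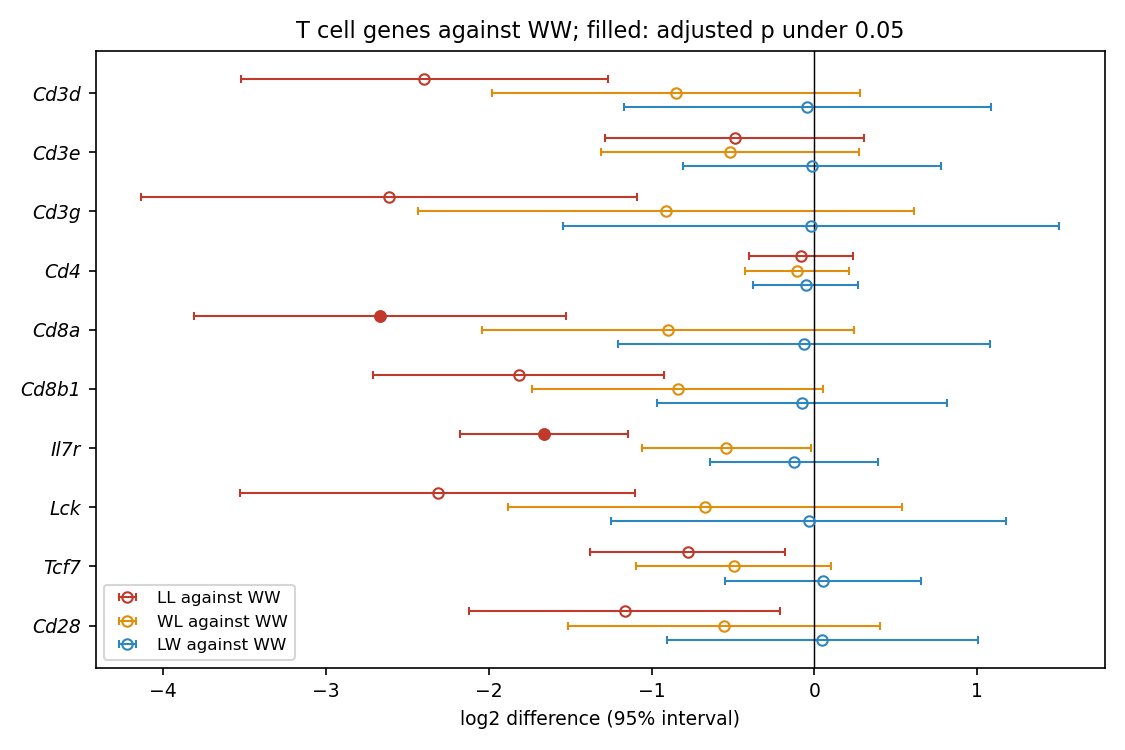
Log2 difference of each T cell gene from WW in LL (red), WL (orange) and LW (blue), with 95% intervals from limma; filled points passed an adjusted p under 0.05, and the vertical line is no difference. The 3 comparisons share the 2 WW lungs. The filled points are Cd8a and Il7r in LL, at -2.67 and -1.66, and the LW points lie between -0.13 and 0.05, with intervals of up to -1.54 to 1.50.

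How many genes passed in LL against WW depended on which lungs entered the fit, in which the 4 groups share 1 estimate of the spread. Without the WL lungs 8 of the 10 genes were lower in LL at an adjusted p under 0.05, against 32.1% of all genes called in either direction in that fit. These were all but Cd3e (adjusted p = 0.0745, limma) and Cd4 (adjusted p = 0.567). On the LL and WW lungs alone it was also 8, against 24.2%. Leaving out both LW lungs left 0 genes called, against 0.952% of all genes called in that fit. Il7r and Cd8a also lost their calls without any 1 LL, LW or WW lung, in fits that called few genes at all. With 1 lung left out at a time the median difference ran from -1.89 to -1.59.

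The comparison of WL with WW sets mice with the receptor in the recipient alone against wild-type chimeras. No T cell gene passed, against 0.00387% of all genes called (limma). At an unadjusted p under 0.05 only Il7r was lower in WL, 1 of 10 against 5.02% of all genes, and the median difference was -0.61. The differences ran from -0.91 for Cd3g (95% interval -2.43 to 0.61) to -0.11 for Cd4 (-0.43 to 0.22). WL mouse 1 lay below every LW and WW lung for 3 genes, Cd4, Il7r and Tcf7, and WL mouse 2 for all 10. The share of all genes so placed was not computed. Markers of lung epithelium and endothelium were also lowest on average in WL mouse 2, at -0.59 relative to the WW mean. Averaged over the 10 genes and relative to the WW mean, the WL mice stood at -0.10 and -1.17 on the log2 scale, while the LL mice stood at -1.57 and -1.63.

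The mice of the WL pair therefore differed from each other more than those of the other pairs for most genes. The gap between the WL mice was 2.11 for Cd3g, 1.62 for Lck and 1.51 for Cd3d, against gaps between 0.05 and 0.45 for these genes in the LL, LW and WW pairs. For Cd4 the WL mice differed by 0.01. WL mouse 2 lay above both LL lungs for 7 genes, below both for Cd3e and between them for Cd4 and Cd28. With WL mouse 1 left out, 8 of the 10 genes passed in WL against WW, against 37.7% of all genes called in that fit. With WL mouse 2 left out none did, and the median difference was -0.10. In both fits the remaining WL mouse has no spread of its own and is assumed to vary like the other groups.

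The comparison of LW with WW does the same for the receptor in the marrow alone. No T cell gene passed, against 0.0542% of all genes called, and none had an unadjusted p under 0.05, against 2.2% of all genes (limma). The median difference was -0.04, and the LW and WW lungs overlapped for 9 genes. For the other, Cd4, both LW values lay below both WW values, 1 of 10 genes against 20.1% of all genes. The differences ran from -0.13 for Il7r (95% interval -0.64 to 0.39) to 0.05 for Tcf7 (-0.55 to 0.65). The widest interval was that of Cd3g, -1.54 to 1.50.

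Against LW lungs, which also had LysM-DTR marrow, Cd8a and Il7r were again the genes that passed in LL. Cd8a fell by 2.60 (SE 0.47, adjusted p = 0.0491, limma) and Il7r by 1.54 (SE 0.213, adjusted p = 0.0271), 2 of 10 genes against 1.51% of all genes called lower and 2.8% called in either direction. Cd3d was at -2.35 (adjusted p = 0.0587), Cd8b1 at -1.74 (adjusted p = 0.0657), Lck at -2.28 (adjusted p = 0.0702) and Cd3g at -2.59 (adjusted p = 0.0854), and none of these passed. The LL lungs are shared by both comparisons. Without either WL lung, or without both, 8 genes passed, against 32.8% of all genes called in either direction in those fits. Without any 1 of the LL, LW or WW lungs Cd8a and Il7r lost their calls, in fits that called few genes at all. With 1 lung left out at a time the median difference ran from -1.78 to -1.50.

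Against WL lungs, whose recipients were also LysM-DTR, no T cell gene passed, against 1.72% of all genes called (limma). Il7r came nearest, at -1.12 (SE 0.213, adjusted p = 0.071). At an unadjusted p under 0.05 it was 6 of 10 genes lower in LL, against 6.17% of all genes, and the median difference was -1.05. Cd3e and Cd4 did not separate the groups, at 0.03 (95% interval -0.77 to 0.82) and 0.02 (-0.30 to 0.34). Without WL mouse 2, 7 of the 10 genes passed, against 19.7% of all genes called in that fit.

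Whether the marrow genotype acted differently in the 2 kinds of recipient was tested as the interaction, LL minus WL set against LW minus WW. No T cell gene passed, against 0.0619% of all genes called (limma). The difference was -1.70 for Cd8a (95% interval -3.31 to -0.08, adjusted p = 0.523) and -0.996 for Il7r (-1.73 to -0.26, adjusted p = 0.366), and the median was -0.95. These 2 were the genes with an unadjusted p under 0.05, 2 of 10 against 9.14% of all genes in either direction. Without WL mouse 2, 5 genes passed, against 8.55% of all genes called in that fit.

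Several T cell genes were read by more than 1 probe, which gives a second measurement of the same lungs. The sequences that follow show what the probes read. Windows of 30 bases are given for probes that hold AATAAA, the signal that precedes the end of most messenger RNAs, with that signal in capitals. All probes are 60 bases long and are printed 5′ to 3′ with mm9 positions of the array annotation.
Cd3d, probe used, chr9:44794452-44794511 (plus strand): ctgtgatcaaccAATAAAgacgtttccttc
Cd3e, probe used, chr9:44806828-44806887 (minus strand): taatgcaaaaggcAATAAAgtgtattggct
Cd4, probe used, chr6:124814711-124814770 (minus strand): agctgacagaaaAATAAAggctataaataa
Lck, probe used, chr4:129225614-129225673 (minus strand): tgcctagcacacaccaggagctcAATAAAa
Cd28, probe used, chr1:60830144-60830203 (plus strand): tgcttagcctgcAATAAAtatttattcatt
These are 5 of the 10 probes that represent a gene, against 9.77% of all 56605 probes that hold AATAAA. Upstream probes of 4 genes, each with at least 1 reading frame free of stop codons, are shown whole, and were chosen after their values were seen.
Cd3d, second probe, chr9:44794171-44794402 (plus strand): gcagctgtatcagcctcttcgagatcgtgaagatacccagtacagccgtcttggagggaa
Cd4, second probe, chr6:124817706-124817765 (minus strand): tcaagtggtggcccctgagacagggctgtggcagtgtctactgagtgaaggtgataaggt
Cd8a, second probe, chr6:71323885-71323944 (plus strand): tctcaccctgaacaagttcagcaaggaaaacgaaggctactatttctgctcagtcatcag
Lck, second probe, chr4:129229196-129229255 (minus strand): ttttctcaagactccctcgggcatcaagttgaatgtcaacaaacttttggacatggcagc
The second Cd3d probe spans more genome than its 60 bases, so it crosses an intron and reads spliced RNA.

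The probes of a gene mostly gave like differences of LL from WW. The Cd3d probes gave -2.40 and -2.47, the probe used first, and the Cd3e probes -0.49 and -0.48, so the unlike values of these neighbouring genes were repeated by their second probes. The Lck probes gave -2.31 and -1.75 and the Tcf7 probes -0.78 and -1.11. The Cd4 probes gave -0.08 and -0.38, the second dim, and the remaining Cd4 probe was never well above background. The Cd8a probes gave -2.67 and -0.93, the second also dim. Fitted over the 39602 probes kept, 2 of the 16 T cell probes were called, against 2.78% of all probes.

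**Figure D3:**
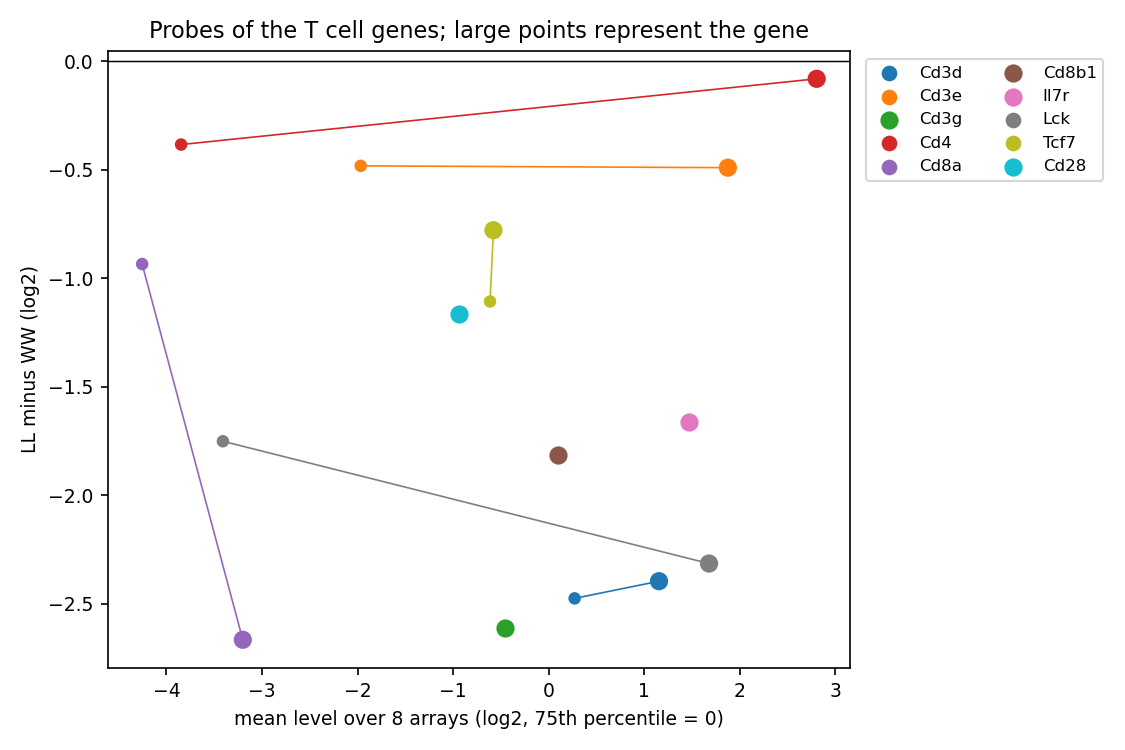
Log2 difference of LL from WW for the 16 T cell gene probes kept, against the probe's mean level over the 8 arrays (log2, 75th percentile = 0); large points are the probes that represent a gene, and lines join probes of 1 gene. The Cd3d pair and the Cd3e pair each lie level, at about -2.40 and -0.49, while the Cd8a pair spreads from -2.67 to -0.93.

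The probe with the highest mean level represented each gene, and for one gene of all white blood cells this mattered. Ptprc, which encodes CD45, had a difference of -0.31 by its brightest probe (SE 0.16, adjusted p = 0.273, limma), while 3 of its other 6 kept probes, those above background on all 8 arrays, gave -3.51, -2.84 and -2.95. The remaining 3 were below background on some arrays. Cd247, the zeta chain of the T cell receptor complex, gave 0.04 by its brightest probe and -0.38, -0.83 and -2.48 by the others, the last 2 not above background on every array, and was chosen after its values were seen. No member with several kept probes had probes as far apart as those of Ptprc. Cd3g, Cd8b1, Il7r and Cd28 had a single kept probe and so could show no gap. The second kept probe of Cd4 was far dimmer than the probe used. Whether the near-level values of Cd4 depend on the probe was not tested.

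The 5 named genes whose 8 levels most resembled the mean profile of the T cell genes were Stat4, Stk10, Elfn1, Sept1 and Vamp1, after each gene was centred on its own mean over the 8 arrays. Their root mean square difference from that profile was 0.112 to 0.121 on the log2 scale over 8 lungs. Among the T cell genes themselves Cd8b1 was nearest at 0.111 and Cd4 farthest at 0.69. A clone that stood first is not named. Stk10, a lymphocyte kinase, had levels of 0.39 and 0.32 in LL lungs, 2.08 and 0.99 in WL lungs, 1.88 and 1.92 in LW lungs and 1.96 and 2.15 in WW lungs, the same order of groups as Lck.

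Of 23 tested genes of receptor signalling and the T cell surface, 4 fell in LL against WW, none rose and 19 did not pass, with a median of -2.01. Rasgrp1, the Ras activator downstream of the receptor, fell by 3.05 (SE 0.32, adjusted p = 0.0144, limma) and the adaptor Grap2 by 3.03 (SE 0.368, adjusted p = 0.0181). The kinase Txk fell by 2.12 and the phosphatase Ptpn22 by 1.55. Rasgrp1 had levels of -2.99 and -3.37 in LL lungs, 0.18 and -0.76 in WL lungs, 0.08 and 0.25 in LW lungs and -0.07 and -0.19 in WW lungs, with WL mouse 2 again below WL mouse 1.

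Of 15 lineage and recirculation genes 3 fell and none rose, with a median of -1.55. Among them were Runx3, a factor of CD8 T cells, at -2.33, and Ccr7, a chemokine receptor of naive and recirculating T cells, at -2.78. Of 11 activation and checkpoint genes 3 fell and none rose, with a median of -0.68: Tnfrsf18 at -1.69, the early activation marker Cd69 at -2.73 and Havcr2 at -4.06, the last also made by myeloid cells and above background on 1 of the 2 LL arrays. None of 11 effector genes passed, among them Cxcr3 at -3.03 (adjusted p = 0.0592, limma) and Gzmk at -3.27 (adjusted p = 0.0667), Gzmk being above background on 1 of the 2 LL arrays. At an unadjusted p under 0.05, 5 of the 11 were lower in LL and 1 was higher. None of 5 tested genes listed for gamma delta and innate-like T cells (Sox13, Zbtb16, Cd163l1, Blk and Cd1d1) passed either. The median of the 5 genes was 0.02, with 0 at an unadjusted p under 0.05. Not all 5, Cd1d1 and Blk among them, are particular to T cells, so this median does not measure those cells. The receptor genes of this list were not among those tested.

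A list of T cell niche and partner genes made by other cells, cytokines and chemokines among them, was included because CD28 binds 2 of the partners. Cd86 fell by 3.75 (SE 0.586, adjusted p = 0.0333, limma) and Cd80 by 1.07 (SE 0.189, adjusted p = 0.0438), 2 of 10 tested genes, with a median of -0.41. Cd86 had levels of -5.16 and -3.18 in LL lungs, -0.14 and -0.49 in WL lungs, -0.83 and -1.07 in LW lungs and -0.40 and -0.44 in WW lungs. It was above background on 1 of the 2 LL arrays. Unlike Cd28, it was not lower in WL mouse 2 than in every LW and WW lung.

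Markers of natural killer cells, B cells, dendritic cells, monocytes and macrophages were mostly lower in LL, like the T cell genes. Those of neutrophils were not, with a median of -0.11, 5 genes below 0 and 3 above. Of 13 natural killer cell markers, which share the lymphoid origin of T cells, 6 fell and none rose, with a median of -2.66. Klrd1 fell by 3.56 (SE 0.291, adjusted p = 0.00795, limma). The log2 of the summed level of this list was 1.84 and 1.85 in LL lungs, 4.12 and 2.75 in WL lungs, 3.93 and 4.50 in LW lungs and 4.21 and 4.21 in WW lungs. All 10 tested B cell markers were above background on all 8 arrays, and none passed, with a median of -2.34 and 9 below 0. Their summed level was 3.17 and 3.15 in LL lungs, 5.42 and 3.58 in WL lungs, 5.20 and 5.84 in LW lungs and 5.06 and 5.35 in WW lungs.

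In the NK cell and B cell lists WL mouse 2 was lower than WL mouse 1, as for the T cell genes. This was not confined to lymphocyte lists. Relative to the WW mean, WL mice 1 and 2 averaged -0.42 and -1.63 for red blood cell markers and 0.20 and -0.49 for dendritic cell markers. For genes of all white blood cells they averaged 0.11 and -0.47. Neutrophil markers (-1.40 and 0.25) and platelet markers (-0.62 and -0.15) went the other way. The group 2 innate lymphoid list averaged 0.02 in WL mouse 1 and 0.74 in WL mouse 2, relative to the WW mean. Its medians were -0.06 and -0.35, so mean and median went opposite ways. Within it Arg1 had levels of -4.83 in WL mouse 1 and 1.72 in WL mouse 2, while Klrg1 had -1.75 and -3.81. Averaged over 11 markers, the monocyte and macrophage list stood at -3.80 and -3.61 in LL lungs, 0.56 and -0.09 in WL lungs, -0.16 and -0.24 in LW lungs and 0.11 and -0.11 in WW lungs, relative to the WW mean. In LL against WW 10 of its 11 genes fell. Of 10 dendritic cell markers 5 fell, of 6 platelet markers all 6 fell, and of 7 genes of all white blood cells 6 fell. No marker of neutrophils (8 tested), red blood cells (6) or lung epithelium and endothelium (10) passed, and the lung markers were above background on every array. The lung list averaged -0.24 and -0.11 in LL lungs, -0.17 and -0.59 in WL lungs, -0.07 and -0.08 in LW lungs and 0.03 and -0.03 in WW lungs. These averages join unlike genes. In LL against WW the differences ran from -2.10 for Sftpc to 0.70 for Cldn5, with 6 below 0 and 4 above. The part of these other cells in the T cell gene values was not tested.

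**Figure D4:**
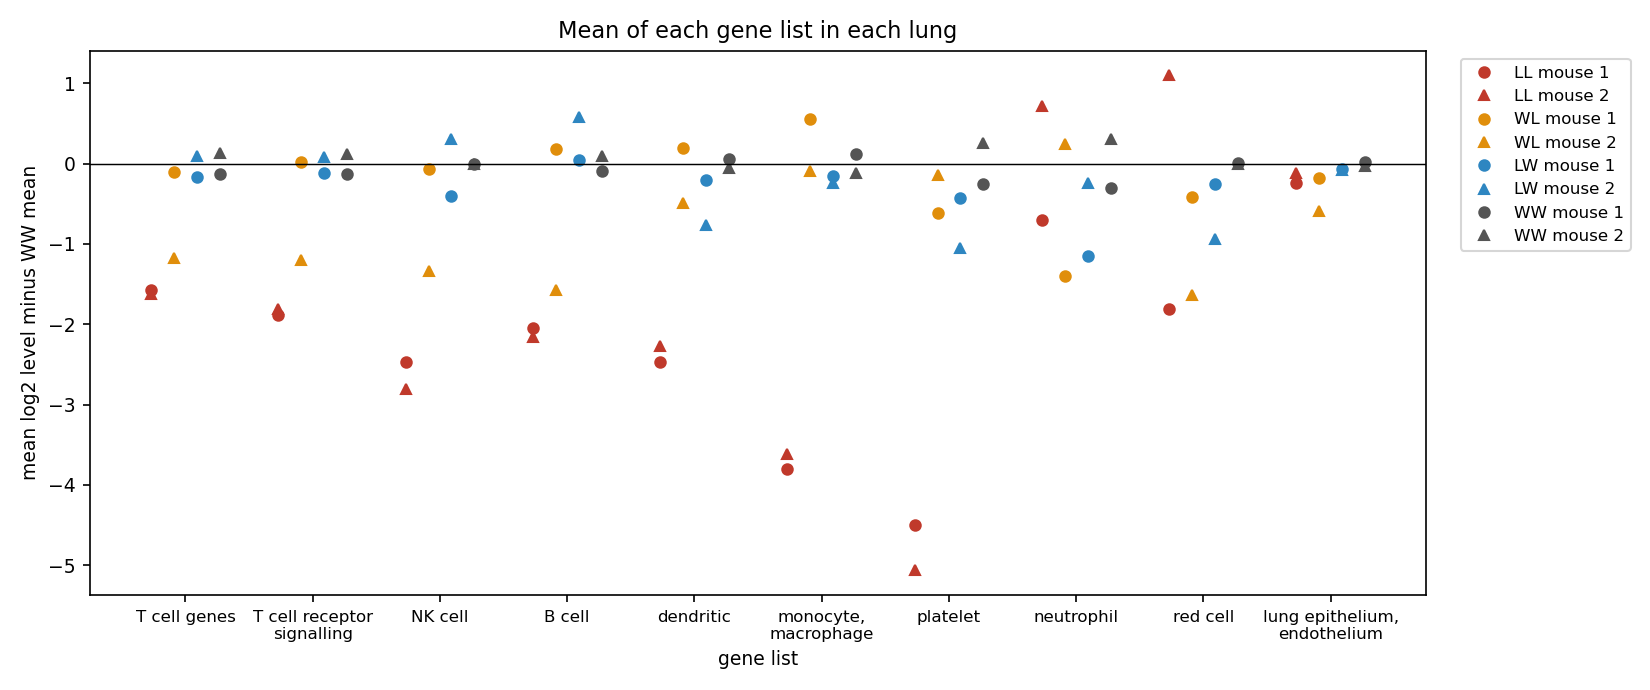
Mean over each gene list of the log2 level minus the WW mean, for each lung (colours give the group, circles mouse 1 and triangles mouse 2). WL mouse 2 lies well below WL mouse 1 in the T cell, receptor signalling, NK cell and B cell lists. For the T cell genes it lies at -1.17, against -0.10 for WL mouse 1. In the macrophage list the WL mice lie at 0.56 and -0.09, and both LL mice are low in all of these lists. WL mouse 2 is also well below WL mouse 1 in the red cell list (-1.63 against -0.42), and above it in the neutrophil and platelet lists.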

How the data were processed

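Total RNA of whole lungs was labelled with Cy3 and hybridised to 1 array per mouse. Per the file headers, the deposited intensity values are processed signals from Agilent Feature Extraction 11.5.1.1, background subtracted within each array and not scaled between arrays. The log2 values of the deposited series table were found by comparison with the array files to be the same signals minus a constant per array, with no centring per gene, and its column medians ran from -2.94 to -2.70.

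Non-uniform spots were left out (0 to 4 per array), spots of a probe were averaged, log2 was taken and the array's 75th percentile subtracted. A probe was kept when both arrays of a group, in 1 group or more, read it well above background, and the probe with the highest mean represented a gene. The number of arrays limits the precision. limma 3.58.1 (R 4.3.3) fitted 4 group means on 8 arrays, with 4 residual and 2.19 prior degrees of freedom, and p-values were adjusted over 25830 genes in each of 6 comparisons. On simulated data the test was checked to recover known changes. Figures were drawn with Python 3.11.15.

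The members and the 16 other gene lists were chosen with earlier results of these data known. Named genes are the 10 members, up to 4 called genes of each list by smallest p or else the 2 with the smallest p, the 5 with the most similar profile, Lyz2 and Ptprc. Predicted genes, clones and receptor segments are not named. One gene that the rule names is not reported here. Promoters came from RefSeq tables. Alternatives covered the background correction, scaling, filter, probe choice, value source, outlier spots, replicate block, variance model and arrays in the fit.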

Additional observations from a re-analysis of the deposited data

How the results depend on the processing

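No T cell gene changed sign in LL against WW under any alternative run. Many of these runs, such as the replicate block or the removal of WL or LW arrays, cannot alter that difference. Cd4 was at -6.2e-05 without LL mouse 1, so its sign carries no weight. The median difference of LL was moved by normexp background correction to -1.11 against WW, -1.10 against LW and -0.55 against WL, and to -0.54 for the interaction. In LL against WW, Il7r was the 1 T cell gene called with normexp, no filter, the mean of a gene's probes or the replicate block. It was also the 1 called with probes above background on all 8 arrays, where Cd8a has no value. Those fits called 1.08 to 3.12% of all genes. On the compared arrays alone 8 T cell genes were called, against 24.2% of all genes, and without both WL arrays 8, against 32.1%. Without both LW arrays it was 0, against 0.952%. In LL against LW 1 T cell gene was called with normexp or the mean of probes. It was also 1 with the percentile over probes detected on all arrays and with probes above background on all arrays. Those fits called 522 to 736 of all genes. With no filter and with the replicate block it was 0, against 291 and 317 of all genes. On the compared arrays alone it was 9, against 7135 of all 25830 genes. Without both WL arrays it was 8, against 32.8% of all genes. In LL against WL normexp called 1 T cell gene, against 471 of all genes. Mice with the same number did not deviate together (correlations of -0.10 to 0.19), so the numbers were not taken as pairs.

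Leaving out 1 array at a time gave 0 to 8 called genes in LL against WW, in LL against LW and in WL against WW, 0 to 7 in LL against WL, 0 to 5 for the interaction and 0 in LW against WW. The medians ran from -1.29 to -0.10 in WL against WW, -1.42 to -0.53 in LL against WL and -1.38 to -0.48 for the interaction. Over all genes, LL against WW called 808 genes with all arrays, 8285 without any WL array, 6242 on the compared arrays alone, 400 with no filter, 447 with the block, 246 without both LW arrays and 4 to 8285 without 1 array. For the other comparisons the counts without 1 array were 4 to 8483 in LL against LW, 23 to 5091 in LL against WL, 0 to 9740 in WL against WW, 0 to 8 in LW against WW and 0 to 2209 for the interaction. With all arrays those counts were 723, 445, 1, 14 and 16; with no filter 291, 255, 0, 6 and 1, with the block 317, 272, 0, 1 and 2, and on the compared arrays alone 7135, 0, 0 and 0 for the first 4. Quantile normalisation gave 53 for the interaction, and LL against WL gave 125 without both LW arrays. The cause of these shifts was not tested beyond the removal of arrays. With 2 mice per group a single lung can decide a call, and dim probes such as that of Cd8a are limited by background.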
